A study of Rattus norvegicus with 4 samples.

Results

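The genes described here are 10 genes of the cornified cell envelope and the superficial squamous epithelium: Sprr1a, Sprr1b, Sprr2d, Sprr3, Krtdap, Sbsn, Cnfn, Rhcg, Ly6d and Tgm1. They were found by symbol, and all 10 were among the 32623 features of single-cell RNA sequencing of dissociated rat esophagus. Their raw unique molecular identifiers (UMIs, 1 per captured transcript) were read in epithelial cells of 4 libraries. Each library was a pool of the esophagi of 5 male Sprague-Dawley rats, 6 weeks old, so each group is 1 sample. The single-dose pool received 35 Gy of X-rays to the esophageal region in 1 exposure and was collected at day 7. The fractionated pools were given 7 Gy daily for 5 days, with tissue taken at day 7 from the first pool and at day 14 from the other. Control rats had the same 5 sessions at 0 Gy, with tissue taken at day 7, and all 3 irradiated pools were set against this 1 library. A control pool of day 14 was not analysed here.

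The cornified envelope is a layer of cross-linked protein that replaces the plasma membrane of keratinocytes as they reach the surface of a stratified epithelium. Transglutaminases join precursor proteins, among them the small proline-rich (SPRR) proteins, while secreted and membrane proteins of the upper layers accompany the change. Basal cells divide, suprabasal cells leave the cycle and differentiate, and in rodents the esophageal surface is keratinised. In these data the genes therefore report on how many cells of the upper layers were captured and on how much of each transcript those cells held. A sum over epithelial cells cannot tell the first from the second.

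The SPRR genes lie in 1 cluster: in the RefSeq annotation of build GRCr8, Sprr1b, Sprr3 and Sprr1a are consecutive protein-coding genes on chromosome 2. Of 10 protein-coding SPRR genes named there, 4 were features of the matrices, and these 4 are the SPRR members. Sprr2a2, Sprr2b, Sprr2f, Sprr2l1, Sprr2l2 and Sprr4 were not analysed here. SPRR genes are close paralogs, and reads of one may be assigned to another or left uncounted, so levels of Sprr1b and Sprr2d in particular are uncertain. Sbsn, Gapdhs, Dmkn and Krtdap are likewise consecutive, on chromosome 1.

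Promoter windows of 300 bases, most of them upstream of the annotated start, were taken from RefSeq for build GRCr8, which differs from the build named for the matrices. Of the 10 genes, 8 matched a window, and Sbsn had 2. They are shown for the SPRR genes and for Krtdap and Sbsn because these genes differed between libraries and lie near one another in the genome, and because genes of AP-1, a factor known to act on SPRR promoters, were measured beside them. Capitals mark the letters TGANTCA, the AP-1 motif, where N is any base. The motif reads the same on both strands. Each window runs 5′ to 3′ along the gene.
Sprr1a, chr2:180752576-180752875, minus strand: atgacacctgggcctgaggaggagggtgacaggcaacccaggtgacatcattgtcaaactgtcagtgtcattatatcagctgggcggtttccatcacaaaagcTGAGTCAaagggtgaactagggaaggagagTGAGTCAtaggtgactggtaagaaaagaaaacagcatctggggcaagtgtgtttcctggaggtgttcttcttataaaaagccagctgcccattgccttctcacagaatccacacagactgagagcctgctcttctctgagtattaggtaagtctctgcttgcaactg
Sprr1b, chr2:180706306-180706605, minus strand: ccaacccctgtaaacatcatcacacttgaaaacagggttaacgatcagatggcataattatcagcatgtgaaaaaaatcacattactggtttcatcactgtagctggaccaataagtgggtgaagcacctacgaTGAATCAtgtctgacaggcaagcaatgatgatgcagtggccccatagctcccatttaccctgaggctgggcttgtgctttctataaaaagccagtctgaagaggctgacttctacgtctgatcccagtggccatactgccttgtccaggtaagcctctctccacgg
Sprr2d, chr2:180566233-180566532, minus strand: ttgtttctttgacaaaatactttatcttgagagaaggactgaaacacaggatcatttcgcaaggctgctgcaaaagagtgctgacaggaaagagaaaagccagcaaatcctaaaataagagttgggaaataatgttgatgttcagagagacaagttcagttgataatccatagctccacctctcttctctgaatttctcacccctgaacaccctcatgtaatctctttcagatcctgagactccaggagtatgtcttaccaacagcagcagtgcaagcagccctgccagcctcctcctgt
Krtdap, chr1:95165612-95165911, plus strand: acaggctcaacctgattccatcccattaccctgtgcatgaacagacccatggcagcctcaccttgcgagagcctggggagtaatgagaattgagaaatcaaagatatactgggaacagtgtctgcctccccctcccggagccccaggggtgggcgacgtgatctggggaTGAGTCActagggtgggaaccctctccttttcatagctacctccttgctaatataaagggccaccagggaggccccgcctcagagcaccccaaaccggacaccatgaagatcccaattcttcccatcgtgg
Sbsn, chr1:95128731-95129030, plus strand: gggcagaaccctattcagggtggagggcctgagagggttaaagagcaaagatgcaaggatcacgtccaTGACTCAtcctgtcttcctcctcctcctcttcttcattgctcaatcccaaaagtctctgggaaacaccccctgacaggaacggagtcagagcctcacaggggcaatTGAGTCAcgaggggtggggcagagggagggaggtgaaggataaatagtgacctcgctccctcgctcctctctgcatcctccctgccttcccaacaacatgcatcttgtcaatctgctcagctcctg

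AP-1 letters stood at positions -147 and -117 in Sprr1a, at -116 in Sprr1b, at -81 in Krtdap and at -182 and -76 in Sbsn, counted from the start site to the first base of the match. The other Sbsn window, chr1:95106140-95106439 on the plus strand, held none, and neither did those of Sprr2d, Cnfn, Rhcg and Tgm1. In the Sprr2d window the annotated start falls on the letters atg, a possible start codon. That window may therefore lie outside the promoter, and nothing about the Sprr2d promoter is read from it. Thus 4 of the 8 genes had a match, in 4 of their 9 windows, and 7.33% of all 33469 windows of this length held one. CACCC, a motif of Krüppel-like factors, was searched on both strands. It matched in 7 of the 8 genes, in 8 of their 9 windows, and in 54.9% of all windows. GGAAG, a motif of ETS factors, matched on either strand in 6 of the 8 genes, in 6 of their 9 windows, and in 70.1% of all windows. AACCNGTT, a grainyhead motif, matched in 0 of the 8 genes and in 2.10% of all windows. No AP-1 match overlapped a match of another motif. These matches describe letters in a window and do not show that a factor binds there.

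Epithelial cells numbered 3103 in the single-dose library, 6355 in the fractionated day 7 library, 420 in the fractionated day 14 library and 2483 in the control library. They made up 32.9%, 71.6%, 4.35% and 21.9% of cells in the same order. The 11 clusters behind them had 10 to 13 of the 14 listed epithelial markers at least 2-fold higher than in clusters of other types. Their median depths were 18793, 6663, 13237 and 15130 UMIs per cell in that order. Total UMIs in epithelial cells ranged from 5747510 at day 14 to 69356968 after the single dose, and the 10 genes together took 0.452%, 0.812%, 0.226% and 0.724% of them. Between 70 and 83 cell barcodes of a library also occurred in another library.

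The libraries stood apart in other ways. Genes of a dissociation and stress list summed to 3102 CPM (UMIs scaled to the same total in every library) after the single dose, 1074 CPM in the fractionated day 7 library, 24507 CPM in the fractionated day 14 library and 24180 CPM in the control library. Of the 18 genes measured, 16 were at least 2-fold lower than in the control after the single dose, 17 in the fractionated day 7 library and 0 at day 14, where 2 were higher. Neutrophil markers summed to 1035 CPM in epithelial cells after the single dose, against 10.1, 1.22 and 1.76 CPM in the others. The members S100a8 and S100a9 of that list also occur in keratinocytes. Fibroblast markers summed to 77.1, 25.2, 433 and 603 CPM, and macrophage markers to 119, 21.7, 124 and 31.2 CPM. None of the fibroblast and macrophage markers were at 0 in any library, and 0, 3, 5 and 3 of the 8 neutrophil markers were. The part of these differences in the results below was not tested.

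Values are CPM of UMIs summed over epithelial cells, with exact Poisson 95% intervals. Ratios of CPM have exact conditional binomial 95% intervals. UMIs were captured at the 3′ end, and levels are compared between libraries and not between genes. With 1 pool per group there is no replicate check, no test and no p-value, and every interval covers counting error only. A gene was counted as higher or lower where the ratio was at least 2-fold and the pair of libraries held at least 20 UMIs.

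After the single dose, Ly6d was much lower than in the control, Sprr1b and Sprr2d were higher, and the abundant envelope genes lay within 2-fold of it. Of 9 genes with enough UMIs, 2 were at least 2-fold higher, where 9.65% of all genes measured in this pair were, and 1 was at least 2-fold lower, where 10.6% were. The median log2 ratio was -0.52 over the 9 genes and 0.16 over all genes. In the fractionated day 7 library, Krtdap, Sprr1b and Rhcg were higher than in the control, while Sprr1a and Ly6d were lower. That is 3 of 9 genes higher, against 11.5% of all genes, and 2 of 9 lower, against 12.3%, with medians of -0.20 and 0.04. At day 14 after the fractions, 5 of 8 genes were lower than in the control, against 5.55% of all genes, and 1 was higher, against 8.53%. The 5 were Sprr1a, Krtdap, Sbsn, Cnfn and Ly6d, and the median log2 ratio was -1.42 over the 8 genes and 0.03 over all genes. The day 14 values depended on which cells were counted, as the values by sub-cluster show.

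**Figure D1:**
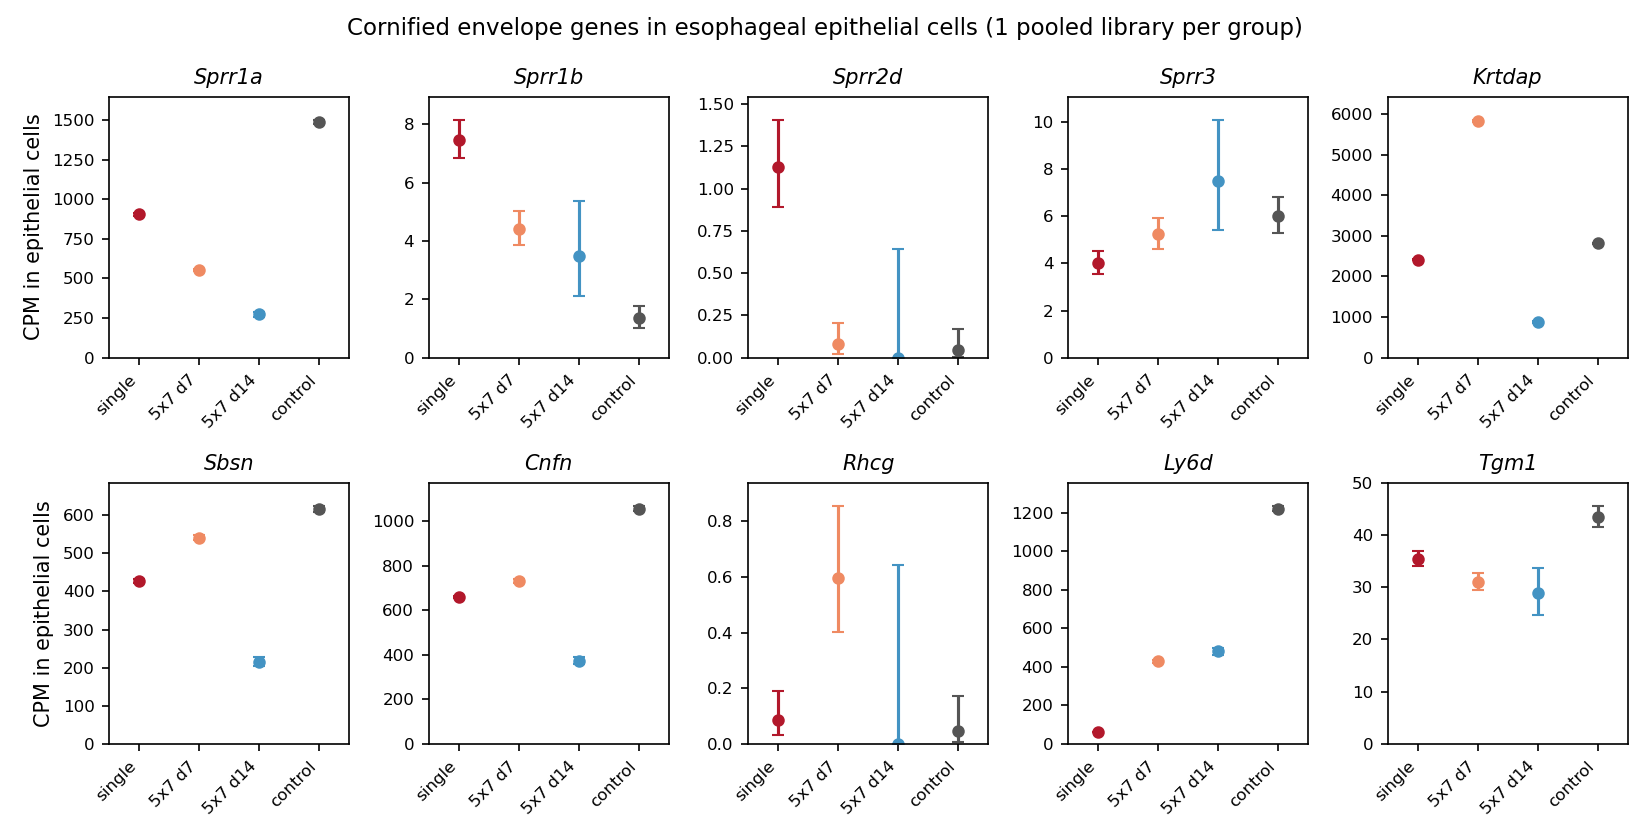
CPM of each gene in epithelial cells of the 4 libraries (x axis), with exact 95% counting intervals as bars and a separate linear y axis from 0 for each gene. Ly6d is at 62.4 CPM after the single dose and 1222 CPM in the control, and Krtdap is highest in the fractionated day 7 library at 5822 CPM.

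**Figure D2:**
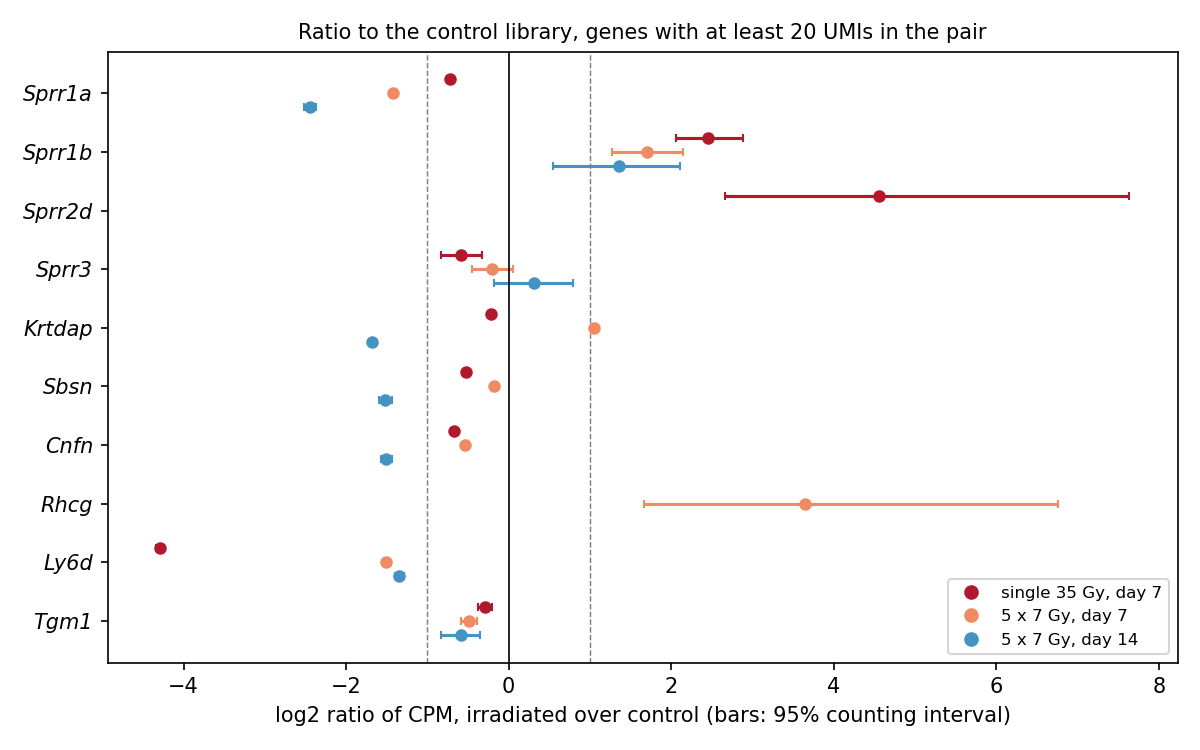
Log2 ratio of CPM to the control library (x axis) for each gene (rows) and irradiated library (colours), with 95% counting intervals as bars and dashed lines at 2-fold. Pairs with under 20 UMIs are left out. Sprr1b lies to the right of 0 in all 3 irradiated libraries, at day 14 from 20 UMIs and only with sub-clusters 10 and 13 counted. Ly6d lies to the left.

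SPRR proteins are small proline-rich precursors that transglutaminases cross-link into the envelope. Sprr1a, also known from injured nerve, was at 904 CPM (95% interval 896 to 911) after the single dose and 553 CPM (547 to 560) in the fractionated day 7 library. It was at 273 CPM (260 to 287) in the fractionated day 14 library and 1486 CPM (1475 to 1498) in the control. All 3 irradiated libraries were below the control, with intervals that did not overlap. The log2 ratios to the control were -0.72 (-0.73 to -0.70), -1.43 (-1.45 to -1.41) and -2.44 (-2.52 to -2.37), in the order single dose, fractionated day 7 and day 14. Across 9 alternative ways of processing, the single-dose ratio ranged from -0.85 to -0.11.

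Sprr1b, its paralog, went the other way at a far lower count. It had 518 UMIs, or 7.47 CPM (6.84 to 8.14), after the single dose, and 222 UMIs, or 4.42 CPM (3.86 to 5.04), in the fractionated day 7 library. The fractionated day 14 library held 20 UMIs, or 3.48 CPM (2.13 to 5.37), and the control 57 UMIs, or 1.36 CPM (1.03 to 1.76). Every irradiated library was above the control, by 5.49-fold (4.17 to 7.36) after the single dose, 3.25-fold (2.42 to 4.43) in the fractionated day 7 library and 2.56-fold (1.46 to 4.33) at day 14. The day 14 value rested on few cells, and 14 of its 20 UMIs lay in sub-cluster 10, which was shallow. Sub-cluster 13 was led by endothelial genes such as Ccl21, Lyve1 and Cldn5. Without these sub-clusters the log2 ratio was -1.24. That value rests on the few UMIs left and has no interval, so no direction is read from it.

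Sprr2d, of the SPRR2 group, had 78 UMIs after the single dose, 4 in the fractionated day 7 library, 0 in the fractionated day 14 library and 2 in the control. The single-dose level of 1.12 CPM (0.889 to 1.40) was 23.6-fold (6.31 to 198) that of the control. The 0 at day 14 allows up to 0.522 CPM at a floor of 3 counts, so day 14 could not be set apart from the control at this depth. In the single-dose library, 60 of the 78 UMIs lay in sub-cluster 8, described below, and no cell had more than 3.

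Sprr3, an envelope precursor typical of esophagus and oral mucosa, was at 4.01 CPM (3.55 to 4.51) after the single dose and 5.24 CPM (4.62 to 5.91) in the fractionated day 7 library. It was at 7.48 CPM (5.41 to 10.1) in the fractionated day 14 library and 6.01 CPM (5.29 to 6.80) in the control. Only the single-dose interval lay clear of the control's, with a log2 ratio of -0.58 (-0.84 to -0.33). Without main cluster 20, a cluster led by Ube2c, Nppb and Car2 and nearly all from the single-dose library, that ratio was 0.08. This setting left 2250 of the 3103 single-dose epithelial cells and all 2483 of the control, whose own cycling-like cells stayed in. Cells thus left the single-dose side only, and no direction is read from ratios to the control under this setting. The SPRR genes thus did not move together: Sprr1a was below the control in all 3 irradiated libraries and Sprr1b above it. At day 14 this held for Sprr1b only where sub-clusters 10 and 13 were counted, and from 20 UMIs.

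Krtdap encodes a small secreted protein of differentiating keratinocytes. It was at 2416 CPM (2404 to 2427) after the single dose, 5822 CPM (5801 to 5843) in the fractionated day 7 library, 877 CPM (853 to 902) in the fractionated day 14 library and 2812 CPM (2796 to 2828) in the control. The fractionated day 7 library stood above the control and the day 14 library below it, while the single-dose library differed from the control by 1.16-fold. The log2 ratios to the control were -0.22 (-0.23 to -0.21) after the single dose, 1.05 (1.04 to 1.06) in the fractionated day 7 library and -1.68 (-1.72 to -1.64) at day 14. With every cell weighted equally the fractionated day 7 ratio was 0.79, which is under 2-fold. Without main cluster 20 the single-dose ratio was 0.29.

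Sbsn encodes suprabasin, a secreted protein of suprabasal keratinocytes. It was at 428 CPM (423 to 433) after the single dose, 541 CPM (535 to 548) in the fractionated day 7 library, 215 CPM (203 to 227) in the fractionated day 14 library and 615 CPM (608 to 623) in the control. Day 14 was the lowest, at 2.86-fold (2.70 to 3.03) below the control, and the other irradiated libraries lay within 1.5-fold of it. Without main cluster 20, which held no control cells, the single-dose log2 ratio was 0.04.

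Cnfn encodes cornifelin, an envelope component of the outermost cells. It was at 660 CPM (654 to 666) after the single dose, 731 CPM (724 to 739) in the fractionated day 7 library, 373 CPM (357 to 389) in the fractionated day 14 library and 1057 CPM (1047 to 1067) in the control. The order of libraries was that of Sbsn, and day 14 was 2.84-fold (2.72 to 2.96) below the control. Its single-dose log2 ratio to the control was -0.68 and ranged from -0.81 to -0.02 across 9 alternative ways of processing.

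Tgm1 encodes transglutaminase 1, the membrane-bound enzyme that cross-links envelope precursors. It was at 35.5 CPM (34.1 to 36.9) after the single dose, 31.1 CPM (29.6 to 32.7) in the fractionated day 7 library, 28.9 CPM (24.7 to 33.6) in the fractionated day 14 library and 43.4 CPM (41.5 to 45.5) in the control. All 3 irradiated libraries were below the control by less than 2-fold, and the 3 lay close together. Without main cluster 20, again with no control cells removed, the single-dose log2 ratio was 0.05. Tgm3, the other transglutaminase of cornification and a gene of the barrier list below, was at 205, 445, 175 and 683 CPM in the same order of libraries. Its log2 ratios to the control were -1.74, -0.62 and -1.97.

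Rhcg encodes an ammonium channel of the Rh family, known from the human esophageal epithelium. It was near the limit of detection, with 6 UMIs after the single dose, 30 in the fractionated day 7 library, 0 in the fractionated day 14 library and 2 in the control. Against the control the fractionated day 7 library was 12.5-fold (3.18 to 108) higher, and 11 of its 30 UMIs lay in the 36 cells of sub-cluster 12. No fold is given for day 14, where both libraries were at or under the floor of 3 counts.

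Ly6d encodes a GPI-anchored surface protein of stratified epithelia, known as a marker of squamous cells. It was at 62.4 CPM (60.6 to 64.3) after the single dose, 428 CPM (423 to 434) in the fractionated day 7 library, 481 CPM (463 to 500) in the fractionated day 14 library and 1222 CPM (1211 to 1232) in the control. Each irradiated library was below the control, by 19.6-fold (19.0 to 20.2), 2.85-fold (2.81 to 2.90) and 2.54-fold (2.44 to 2.64) in that order. It was the only one of the 10 genes that was at least 2-fold lower than in the control after the single dose.

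Between the 2 schedules at day 7, 3 of 10 genes were at least 2-fold higher after the fractions than after the single dose, where 7.97% of all genes were, and 1 was lower, where 13.1% were. The genes higher after the fractions were Ly6d by 6.86-fold (6.64 to 7.09), Rhcg by 6.90-fold (2.83 to 20.3) and Krtdap by 2.41-fold (2.40 to 2.42). Krtdap was under 2-fold without main cluster 20 and with every cell weighted equally, with a lowest log2 ratio of 0.76. Sprr2d was lower, with 4 against 78 UMIs or 14.1-fold (5.30 to 53.1). Sprr1a and Sprr1b were lower after the fractions by 1.63-fold and 1.69-fold. Between day 14 and day 7 of the fractionated schedule, 3 of 9 genes were at least 2-fold lower at day 14, against 12.9% of all genes, and 0 were higher, against 14.8%. These were Krtdap by 6.64-fold (6.45 to 6.83), Sbsn by 2.52-fold (2.38 to 2.67) and Sprr1a by 2.03-fold (1.93 to 2.13). With every cell weighted equally the log2 ratio turned to 0.15 for Sbsn and 0.57 for Sprr1a. Ly6d differed by 1.12-fold (1.08 to 1.17) between these days, in the direction of day 14. Rhcg had 0 UMIs at day 14 and 30 at day 7, and its counting interval included no difference.

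Sub-clusters of the epithelial cells were made without the 10 genes and without the other barrier genes. Genes that followed the 10 closely, such as Dmkn and Serpinb12 described below, were not left out. The epithelial cells themselves came from a clustering that included the 10 genes. Levels within sub-clusters are therefore not independent of the clustering. Of 14 sub-clusters, most came from 1 library: basal-like cells from sub-cluster 2 after the single dose, 0 in the fractionated day 7 library, 11 at day 14 and 5 in the control. Suprabasal-like cells came mostly from sub-clusters 1 and 6 in the fractionated day 7 library and from sub-cluster 4 at day 14 and in the control. They made up 1.06% of epithelial cells after the single dose (33 cells), 45.1% in the fractionated day 7 library, 8.57% at day 14 (36 cells) and 40.8% in the control. In the single-dose library 629 cells, or 20.3%, formed sub-cluster 8, which had S100a9, S100a8 and Defb1 among its leading genes. Suprabasal was its best-scoring class, at a score of 0.081. It stayed unnamed because 0 of the listed suprabasal markers were at least 1.5-fold higher in it. The share of suprabasal-like cells after the single dose therefore depends on this naming. Sub-cluster 10, also unnamed, was shallow, with median depths of 4619, 1131, 2878 and 1475 UMIs. It was led by Hba-a2 and had Sprr3 and Cnfn of the 10 genes among its leading genes. It held 3.54%, 0.472%, 15.2% and 4.83% of the epithelial cells in the order single dose, fractionated day 7, day 14 and control.

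In the fractionated day 7 library and in the control, suprabasal-like cells held most UMIs of the abundant envelope genes: 96.1% and 90.6% for Sprr1a, 96.0% and 90.2% for Krtdap, and 97.4% and 89.8% for Cnfn. Within them Krtdap was at 9408 CPM in the fractionated day 7 library and 4853 CPM in the control. Sprr1a was at 895 and 2576 CPM and Cnfn at 1199 and 1816 CPM. These cells came mostly from different sub-clusters in each library. Sub-cluster 12 had 36 cells in the fractionated day 7 library and 86 in the control. There Krtdap was at 27578 and 12160 CPM and Sprr1a at 6510 and 7846 CPM. Cnfn lay the other way from the whole class, at 21101 and 10370 CPM. After the single dose the same genes lay mostly elsewhere. The 33 suprabasal-like cells of that library held 11.3% of its Sprr1a, 8.59% of its Krtdap and 32.2% of its Cnfn UMIs. Their levels were high, at 7872, 15986 and 16366 CPM in that order. Sub-cluster 8 held 60.3% of Sprr1a, 54.9% of Krtdap and 49.4% of Cnfn UMIs of that library, at 2191, 5337 and 1313 CPM.

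The single-dose library also differed in its cycling-like cells, nearly all of sub-cluster 3, which was led by Car2 and Krt16. They were 1028 cells with Krtdap at 1607 CPM, Sprr1a at 455 CPM and Sbsn at 298 CPM, where the 392 cycling-like cells of the control, mostly of sub-cluster 9, had 316, 71.6 and 37.1 CPM. In the 734 cycling-like cells of the fractionated day 7 library these genes were at 964, 78.8 and 61.8 CPM, and in the 77 of day 14 at 14.5, 20.8 and 3.46 CPM. Of those 734 cells, 12 were of sub-cluster 3. The 722 of sub-cluster 7 had 825, 24.2 and 34.9 CPM. In the single-dose library, the 28 cells of sub-cluster 7 had 135, 29.2 and 39.6 CPM. Of Sprr1b UMIs in the single-dose library, 385 of 518 lay in sub-cluster 3, at 11.9 CPM, and of Tgm1 UMIs 1348 of 2463.

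At day 14 the 64 shallow cells of sub-cluster 10 held 83.1% of Cnfn, 56.4% of Sprr1a and 51.1% of Sbsn UMIs. For Krtdap they held 37.4% and the 36 suprabasal-like cells 40.1%, and for Tgm1 6.63% and 51.2%. Those cells had Cnfn at 6221 CPM, Sbsn at 2207 CPM and Sprr3 at 133 CPM, against 3021, 1329 and 34.8 CPM in the 120 control cells of sub-cluster 10. The 36 suprabasal-like cells of day 14 had Krtdap at 2876 CPM, Sprr1a at 578 CPM and Cnfn at 347 CPM, against 4853, 2576 and 1816 CPM in 1013 control cells. The control class included 86 cells of sub-cluster 12, which held 69.3% of control Cnfn UMIs, where day 14 had 1 such cell. Within sub-cluster 4 alone, Krtdap was at 2875 CPM, Sprr1a at 543 CPM and Cnfn at 293 CPM in 35 cells of day 14, against 3710, 1756 and 480 CPM in 922 control cells. Leaving out sub-cluster 10 removes cells that have Cnfn itself among their leading genes. Without sub-clusters 10 and 13, the day 14 log2 ratios to the control were further down. They were -3.83 for Sprr1a, -2.53 for Krtdap, -2.76 for Sbsn and -4.14 for Cnfn. With every cell weighted equally, which gives shallow cells more weight, they were -1.16, -0.82, -0.34 and -0.10.

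**Figure D3:**
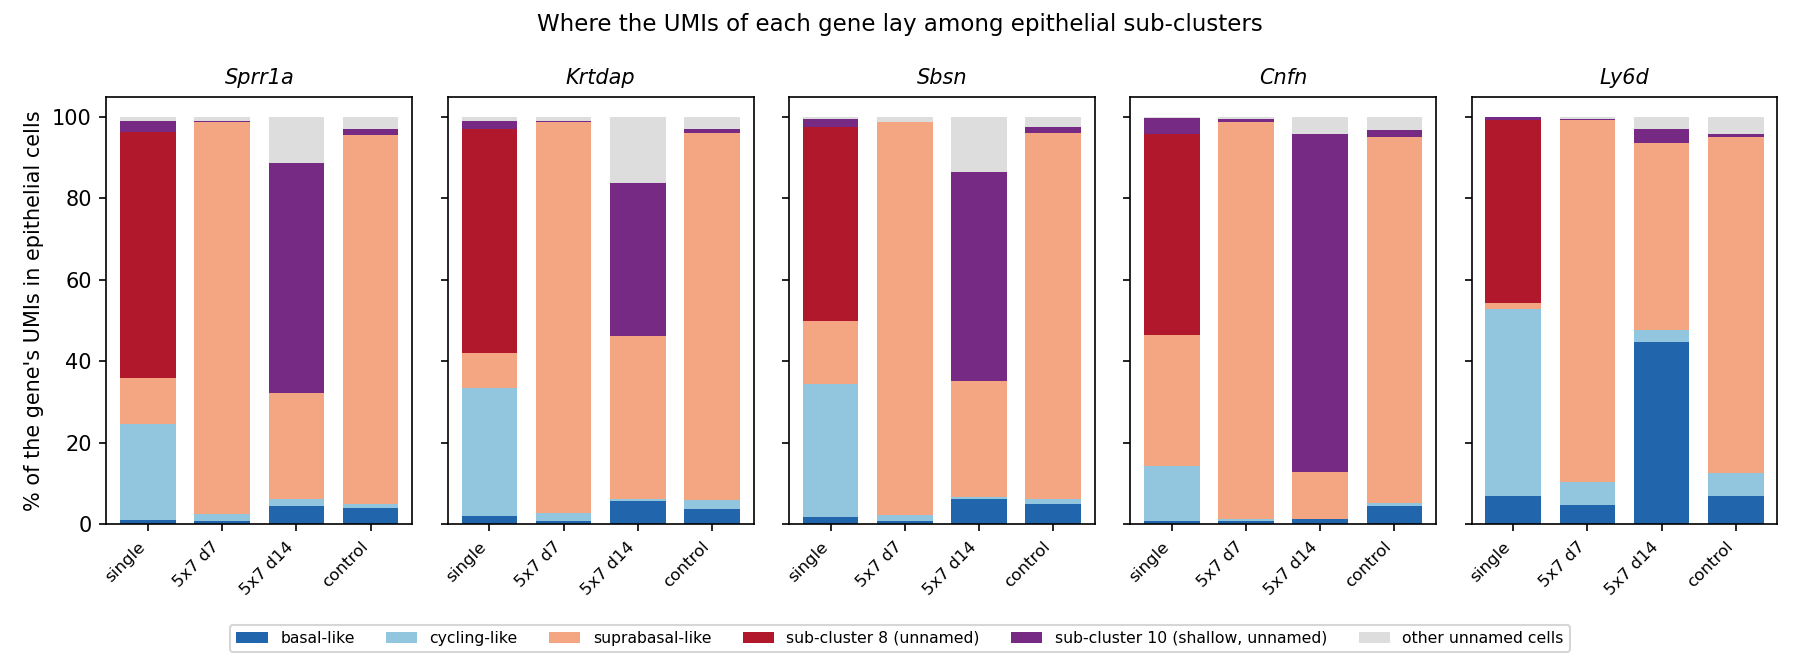
Percentage of a gene's epithelial UMIs (y axis) in basal-like, cycling-like and suprabasal-like cells, in sub-clusters 8 and 10 and in the other unnamed cells, for the 4 libraries (x axis). The genes shown are Sprr1a, Krtdap, Sbsn, Cnfn and Ly6d. Of these, sub-cluster 8 carries 45.1% to 60.3% after the single dose, and sub-cluster 10 carries 83.1% of Cnfn at day 14.

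Ly6d was lower after the single dose in each kind of epithelial cell. Basal-like cells had 17.6 CPM after the single dose and 315 CPM in the control. Cycling-like cells had 60.5 and 389 CPM, and suprabasal-like cells 67.7 and 1928 CPM, in the same order. The suprabasal-like value after the single dose rested on 61 UMIs in 33 cells, 17 of sub-cluster 12 and 1 of sub-cluster 4. Of the 1013 control cells, 922 were of sub-cluster 4, which has Ly6d itself among its leading genes. In the fractionated day 7 library the values were 73.1, 210 and 640 CPM in basal-like, cycling-like and suprabasal-like cells. Within sub-cluster 12 alone, Ly6d was at 55.7 CPM (45 UMIs) in 36 cells of that library and 1268 CPM in 86 control cells. At day 14 Ly6d was at 394, 56.1 and 1802 CPM in basal-like, cycling-like and suprabasal-like cells. The basal-like and suprabasal-like cells were thus near the control and the cycling-like cells were not. Basal-like cells held 44.7% of Ly6d UMIs at day 14 and 6.87% in the control.

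The transcripts were held by few cells. In epithelial cells of the single-dose library, 50% of Cnfn UMIs lay in 0.838% of cells, and the share was 0.488% in the fractionated day 7 library, 0.952% at day 14 and 1.41% in the control. For Sprr1a it was 2.74%, 1.76%, 2.86% and 4.15% of cells, and for Krtdap 4.80%, 5.22%, 3.57% and 6.44%. For Ly6d it was 0.999%, 3.71%, 3.33% and 8.42%. The control needed the largest share of cells for each of these 4 genes. At day 14 the Cnfn value stood for 4 cells.

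**Figure D4:**
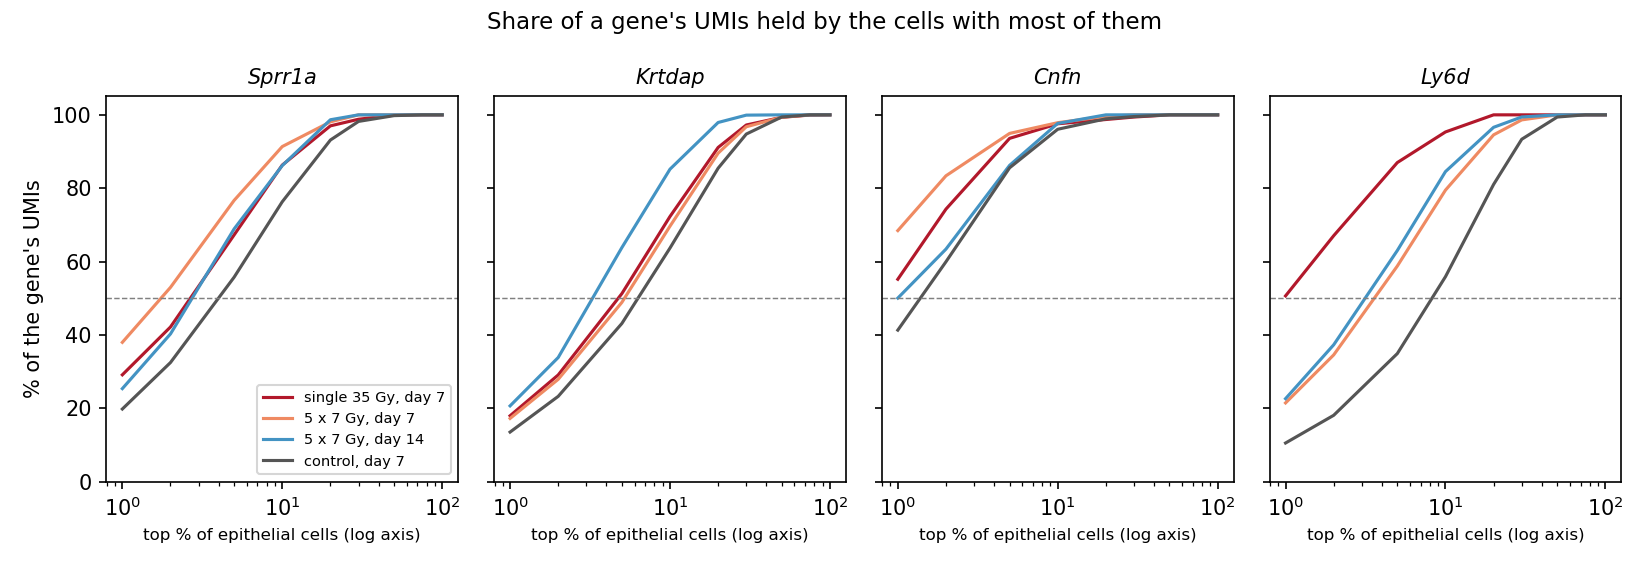
Percentage of a gene's UMIs (y axis) held by the top percentage of epithelial cells ranked by that gene (x axis, log scale), with a dashed line at 50%. The control curve lies to the right of the others at 50% for all 4 genes shown, and Ly6d reaches 50.6% in the top 1% of single-dose cells.

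For detection at equal depth, each cell was thinned to 1000 UMIs. That left out 26 epithelial cells after the single dose, 161 in the fractionated day 7 library, 16 at day 14 and 49 in the control. Krtdap was then detected in 34.9% of epithelial cells after the single dose, 47.2% in the fractionated day 7 library, 20.3% at day 14 and 41.8% in the control. Unthinned shares were 78%, 74.7%, 31% and 72.5%. Free RNA was read in mural cells, which should lack the gene and had median depths of 5038.5, 1691, 4924 and 3682 UMIs. There Krtdap was detected in 9.84%, 19.5%, 0.437% and 11.1% of cells, so epithelial shares were above this background in every library. In basal-like cells the share was 11.7%, 16.8%, 4.26% and 7.75%, which is at or near the mural share except at day 14.

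Sprr1a was detected in 18.1%, 12.4%, 13.6% and 27.7% of thinned epithelial cells and in 6.12%, 2.56%, 0.437% and 2.98% of mural cells, in the same order. Unthinned shares were 51.8%, 28.4%, 25% and 55.4% of epithelial cells. Ly6d was detected in 2.86%, 16.3%, 16.1% and 33.6% of epithelial cells and in 0.532%, 2.24%, 0.218% and 3.64% of mural cells. Unthinned, the epithelial shares were 16.5%, 34.6%, 33.8% and 62.2%. In basal-like cells Ly6d was detected in 1.1%, 3.68%, 11.9% and 10.9%, above the mural share at day 14 and in the control beyond counting error. Cnfn was in 8.42%, 7.70%, 10.6% and 12.5% of epithelial cells, against 4.52%, 1.60%, 0.109% and 3.48% of mural cells. Its CPM did not follow that order, and no order is read from the Cnfn shares.

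**Figure D5:**
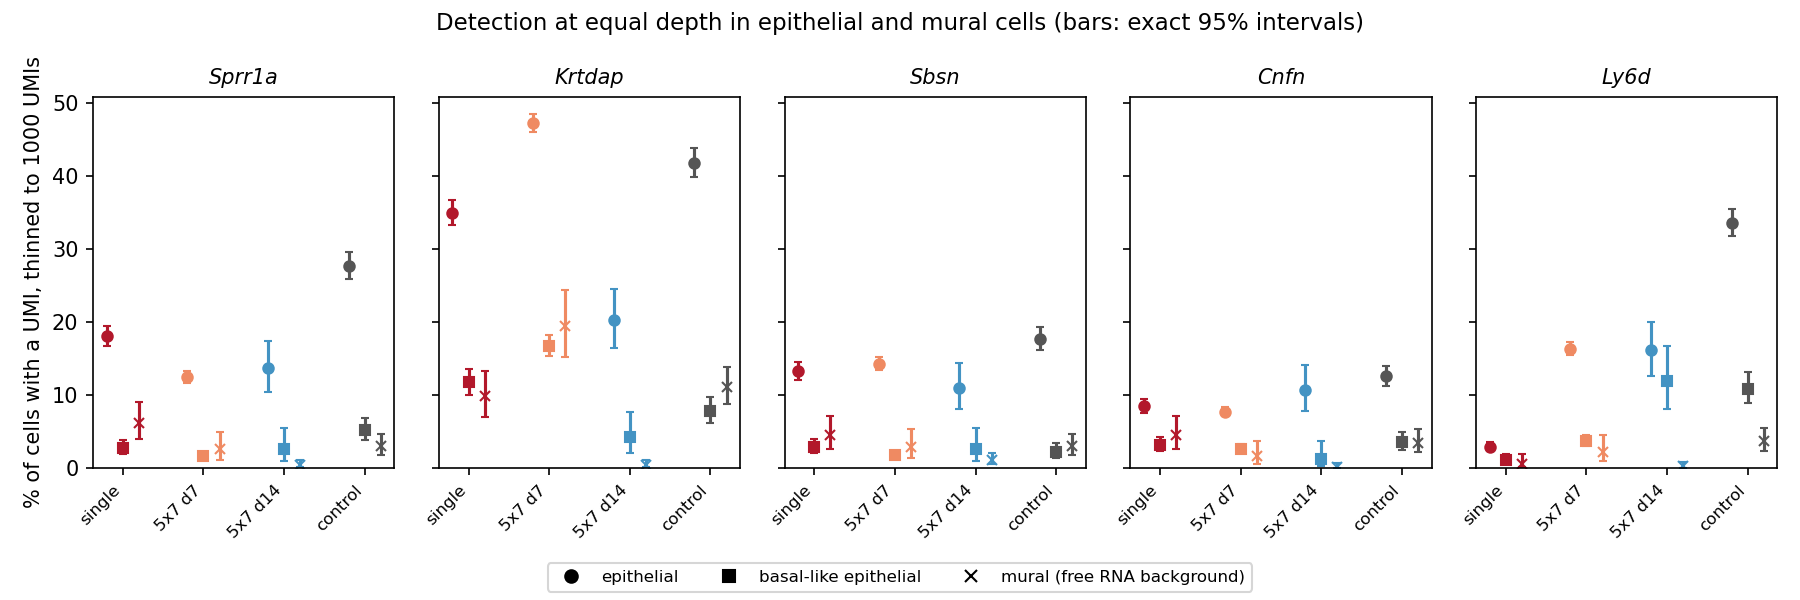
Percentage of cells with at least 1 UMI of a gene after thinning to 1000 UMIs (y axis) in all epithelial, basal-like epithelial and mural cells (symbols) of the 4 libraries (x axis), with exact 95% intervals as bars. Epithelial Ly6d lies between 2.86% after the single dose and 33.6% in the control, while mural cells stay at or under 3.64%.

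Detection of envelope genes overlapped within cells. Among thinned epithelial cells with a Cnfn UMI, Sprr1a was detected in 76.1% after the single dose, 56.6% in the fractionated day 7 library, 76.7% at day 14 and 77.4% in the control. Among cells without one the shares were 12.7%, 8.71%, 6.09% and 20.6%. Ly6d overlapped less with Cnfn: it was beside Cnfn in 20.5%, 13.5%, 15.4% and 19.6% of cells with a Ly6d UMI, where cells without one had Cnfn in 8.06%, 6.58%, 9.73% and 8.97%. These pairs share depth and free RNA, and the shares are a description.

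Across 17 sums over a library and a sub-cluster of at least 50 cells, likeness of log2 CPM was described with Pearson's r. Sprr1a, Sbsn and Cnfn were alike, with r of 0.97 for each pair, and Krtdap had r of 0.94 with Sbsn and 0.86 with Sprr1a. Ly6d stood apart from these 4 genes, with r between 0.40 and 0.48. Of genes outside the 10 with at least 200 UMIs, the one most like Krtdap was Dmkn, its neighbour on chromosome 1 (r = 0.98), which encodes the secreted protein dermokine. Dmkn was at 2168 CPM after the single dose, 2557 CPM in the fractionated day 7 library, 819 CPM at day 14 and 1993 CPM in the control, where Krtdap was at 2416, 5822, 877 and 2812 CPM. Cysrt1 was most like Sbsn (r = 0.99), Serpinb12 most like Cnfn (r = 0.97), Fdps most like Sprr1a (r = 0.96) and Cd59 most like Tgm1 (r = 0.94). For Ly6d it was Rab7b, at r = 0.86. Sprr2d, with 84 UMIs in all, was most like Lipn (r = 0.93), followed by AABR07034362.2 and S100a9 (r = 0.87 for each). The last 2 are also among the leading genes of the neutrophil cluster. The part of neutrophil RNA in the Sprr2d counts was not tested. Sums from 1 library share depth and free RNA, and r is given as a description with no p.

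Other cornified envelope and barrier genes were read from a list of 64 symbols, of which 49 were in the files and 39 had enough UMIs in each comparison with the control. After the single dose, 13 were at least 2-fold lower than in the control and 1 was higher, where 10.6% and 9.65% of all genes were, with a median log2 ratio of -0.75 over the list and 0.16 over all genes. In the fractionated day 7 library, 10 were lower and 2 higher, where 12.3% and 11.5% of all genes were, with medians of -0.28 and 0.04. At day 14, 19 were lower and 5 higher, where 5.55% and 8.53% of all genes were, with medians of -0.95 and 0.03. Cldn4, a tight junction protein, was at 52.9 CPM after the single dose, 34.2 CPM in the fractionated day 7 library, 219 CPM at day 14 and 578 CPM in the control. Slurp1, a secreted Ly6-family protein, was at 6.59, 11.7, 10.4 and 65.7 CPM in that order. Csta, the protease inhibitor cystatin A and an envelope precursor, was higher than the control in all 3, at 53.4, 40.1, 29.9 and 5.13 CPM.

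Some genes of that list set the schedules or days apart. Emp1, a membrane protein of the epithelium, was at 97.0 CPM after the single dose, 325 CPM in the fractionated day 7 library and 552 CPM in the control. The plakin Evpl and the envelope precursor Scel were at 143 and 102 CPM in the fractionated day 7 library, against 54.7 and 42.0 CPM in the single-dose library. Dsc1, a desmosomal cadherin of upper layers, was at 4.52 CPM at day 14 and 28.4 CPM in the control, and Elovl4, which makes very long fatty acids for barrier lipids, at 12.9 and 70.1 CPM. Tchh, trichohyalin, was at 19.3 CPM at day 14 and 1.19 CPM in the fractionated day 7 library. In the same libraries Tgm2, a widely expressed transglutaminase, was at 6.79 and 1.02 CPM, and Mal, a membrane protein of polarised cells, at 2.44 and 0.279 CPM from 14 UMIs each. Of the list, 10 were higher and 4 lower in the fractionated day 7 library than after the single dose, where 7.97% and 13.1% of all genes were. At day 14, 6 of 38 were higher and 14 lower than at day 7 of the fractions, where 14.8% and 12.9% of all genes were.

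Of 26 upstream transcription factors measured, 9 were at least 2-fold lower than in the control after the single dose and 1 higher, where 10.6% and 9.65% of all genes were. In the fractionated day 7 library 9 were lower and 4 higher, where 12.3% and 11.5% of all genes were, and at day 14, 4 were lower and 1 higher, where 5.55% and 8.53% were. The median log2 ratios were -0.68, -0.56 and -0.34 over the list, against 0.16, 0.04 and 0.03 over all genes. AP-1 genes were among those that differed most: Fosl1 was at 9.26 CPM after the single dose, 0.318 CPM in the fractionated day 7 library, 92.2 CPM at day 14 and 185 CPM in the control. Jund was at 94.3, 59.6, 638 and 1020 CPM and Junb at 336, 97.1, 1583 and 1704 CPM in that order. These levels moved with the stress list given above, which itself includes Junb, and the part of cell handling in them was not tested.

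Klf4, a Krüppel-like factor of barrier formation, was at 137, 151, 550 and 888 CPM, and Ovol1, a zinc finger factor of the same layers, at 32.8, 41.4, 102 and 218 CPM. Grhl3, the grainyhead factor of the upper epithelium, was at 23.7 CPM after the single dose, 101 CPM in the fractionated day 7 library, 13.6 CPM at day 14 and 41.9 CPM in the control. Znf750, which acts below p63 in keratinocyte differentiation, was at 6.09 CPM at day 14 and 31.1 CPM in the control.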

How the data were processed

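Raw UMI counts of 4 libraries of rat esophagus (10x 3′ chemistry) were used as deposited by the authors, with Cell Ranger 5.0.0 and builds mRatBN7.2 and rn7 named in the submitters' processing notes. No source used here names the annotation release. Features sharing a symbol were summed. Per the labels, tissue was kept cold, shipped, digested enzymatically and cleared of dead cells.

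Barcodes were kept from 200 genes and 500 UMIs upwards, where mitochondrial UMIs did not exceed 20%, which removed 15.2%, 16.6%, 3.71% and 5.49% for mitochondrial share (single dose, fractionated day 7, day 14, control). Simulated doublets were scored, and calls of 3.08%, 2.22%, 4.18% and 3.86% were left out, as were clusters with over 50% calls. Cells were clustered (scanpy 1.11.5, leidenalg 0.10.2, 2000 variable genes, 30 components, resolution 1) and clusters were named from at least 3 listed markers; the scoring was set after the data were seen, and another clustering may draw the classes differently. Epithelial cells were clustered again at resolution 0.5 without the 10 genes and the barrier list. UMIs were summed per library, with Poisson and conditional binomial 95% intervals from scipy 1.17.1. Total UMIs per library were 109618791, 59805782, 80574775 and 97207745 in the same order. Scripts were tested on simulated data.

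With 1 library per group no test was made. A comparison counted a gene as differing at 2-fold with at least 20 UMIs in the pair. From each list, the text names the 4 genes with the largest ratio in each comparison, judged by the interval bound nearest to 0; Tgm3 was named after its values were seen, as Tgm1's partner. A gene that this rule selects is not reported here. Likeness used a pseudocount of 10 CPM. The genes and lists were chosen with earlier results of these data known.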

Additional observations from a re-analysis of the deposited data

Results flagged for a closer look

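Krtdap lay on different sides of the control in different irradiated libraries. Its log2 ratio to the control was -0.22 after the single dose, 1.05 in the fractionated day 7 library and -1.68 in the fractionated day 14 library. It was singled out because the directions were opposite under the same kind of comparison. With 1 library per group, the difference between these ratios was not tested, and the 3 ratios share the control library.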

How the results depend on the processing

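Each group was 1 pooled library, so no value could be checked by leaving out a replicate. No paired analysis was possible because no group had more than 1 library. Of 44 gene ratios recomputed under 9 alternatives each, 15 had an opposite sign and 15 crossed 2-fold under at least 1 of them; those without main cluster 20 and without sub-clusters 10 and 13 were chosen after seeing the data. At a 1.5-fold threshold, 3 genes were lower after the single dose than in the control, and 3 were lower in the fractionated day 7 than in the single-dose library. At a 4-fold threshold, 1 was higher and 0 were lower in the fractionated day 7 library than in the control, 0 were higher and 1 lower at day 14 than in the control, and 1 was lower at day 14 than at day 7 of the fractions. With every cell weighted equally, 4 were lower in the fractionated day 7 library than in the control, 2 were higher and 2 lower at day 14 than in the control, 3 were lower in the fractionated day 7 than in the single-dose library, and 2 were higher and 1 lower at day 14 than at day 7. There the day 14 to day 7 log2 ratio turned to 0.57 for Sprr1a and 0.15 for Sbsn. Without sub-clusters 10 and 13, 0 were higher at day 14 than in the control, and 6 were lower at day 14 than at day 7. The Sprr1b ratio of day 14 to the control was then -1.24, from few UMIs. Without main cluster 20, 3 were lower in the fractionated day 7 than in the single-dose library. The single-dose ratios to the control were then 0.08 for Sprr3, 0.29 for Krtdap, 0.04 for Sbsn and 0.05 for Tgm1. That setting took many cells from the single-dose library and none from the control, so no direction is read from these ratios. The cause of these shifts was not tested. The 420 epithelial cells of day 14 limit its values, and Sprr2d and Rhcg could not be set apart from the control there at this depth.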

Other observations

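Some of the genes also had UMIs in cells of other classes. Tgm1 was at 193 CPM (169 to 218, 247 UMIs) in 969 neutrophils of the single-dose library, against 35.5 CPM in its epithelial cells and 9.70 CPM in its mural cells. Sbsn was at 22.0 CPM (793 UMIs) in fibroblasts of the fractionated day 14 library, where Krtdap was at 2.94 CPM (106 UMIs), while control fibroblasts had Sbsn at 17.5 CPM and Krtdap at 52.4 CPM. Ly6d was at 499 CPM (53 UMIs) in 33 skeletal muscle cells of the control, against 47.6 CPM in its mural cells. Free RNA and doublets as sources of these UMIs were not tested.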
